A study of Mus musculus with 3 samples.

Results

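The genes described here are 10 neuronal cytoskeleton and growth genes: the neurofilament subunits Nefl, Nefm, Nefh and Ina, the peripheral intermediate filament gene Prph, the stathmins Stmn1, Stmn2, Stmn3 and Stmn4, and Gap43. They were taken by symbol from the feature lists of the deposited matrices, and all 10 were found among the 30406 genes that the 3 matrices share. The series profiled single cells sorted for GFP from the atria of Baf53b-cre;lox-GFP mice, in which the neuronal Baf53b (Actl6b) gene directs Cre and thereby marks neurons with GFP. One 10x Chromium 3′ V3 library came from pooled (mixed) ganglia of mice aged 2 months, one from anterior ganglia at 3 months and one from posterior ganglia at 4 months. All carried this genotype, both sexes were used, and the protocol names 10 mice, which were pooled. Each region therefore has 1 library, and region, library and labelled age cannot be told apart.

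Neurofilaments are built from light, medium and heavy chains (Nefl, Nefm, Nefh), with alpha-internexin (Ina) as a further subunit, and they fill large axons and set their calibre. Peripherin (Prph) co-assembles with them and is the intermediate filament typical of neurons outside the brain and spinal cord. Stathmins bind tubulin and regulate microtubule growth; Stmn2, Stmn3 and Stmn4 are anchored to membranes, whereas Stmn1 is cytosolic and is also made by dividing and glial cells. Gap43 is a membrane protein of growth cones and presynaptic endings.

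In GENCODE vM21 on GRCm38 (mm10), Nefl lies at chr14:68083863-68089095 on the plus strand and Nefm at chr14:68082590-68124846 on the minus strand. The annotated span of Nefm overlaps that of Nefl on the opposite strand. The strand setting of the counting is not given in the sources used here. Whether any reads of this pair were mixed was not tested. Nefh lies at chr11:4938754-4948064, Ina at chr19:47014698-47025327 and Prph at chr15:99055174-99058978. Stmn1 lies at chr4:134468320-134473843, Stmn2 at chr3:8509360-8561606, Stmn3 at chr2:181306459-181314500 and Stmn4 at chr14:66344296-66361680. Gap43 lies at chr16:42248442-42340651.

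RefSeq promoter sequences (GRCm38.p6) were at hand for 3 of the 10 genes. The 250 bases before the start in the RefSeq table, which for Ina lies upstream of the GENCODE start given above, are printed for Prph and Stmn3, whose levels were nearly flat across neuron subtypes, and for Ina, whose level was not. Capitals mark TATAAA and GGGCGG on either strand and CANNTG, which reads alike on both strands; no marked motifs overlap.
Prph, chr15:99054924-99055173, plus strand: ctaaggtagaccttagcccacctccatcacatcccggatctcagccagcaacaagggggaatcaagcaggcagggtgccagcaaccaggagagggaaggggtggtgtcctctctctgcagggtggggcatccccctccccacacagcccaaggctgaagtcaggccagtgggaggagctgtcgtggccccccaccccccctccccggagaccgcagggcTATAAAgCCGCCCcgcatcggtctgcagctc
Stmn3, chr2:181314501-181314750, minus strand: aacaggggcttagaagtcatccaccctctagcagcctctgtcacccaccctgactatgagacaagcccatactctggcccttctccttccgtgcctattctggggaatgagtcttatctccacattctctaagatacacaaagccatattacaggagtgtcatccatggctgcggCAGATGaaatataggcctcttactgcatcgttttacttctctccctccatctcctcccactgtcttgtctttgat
Ina, chr19:47014431-47014680, plus strand: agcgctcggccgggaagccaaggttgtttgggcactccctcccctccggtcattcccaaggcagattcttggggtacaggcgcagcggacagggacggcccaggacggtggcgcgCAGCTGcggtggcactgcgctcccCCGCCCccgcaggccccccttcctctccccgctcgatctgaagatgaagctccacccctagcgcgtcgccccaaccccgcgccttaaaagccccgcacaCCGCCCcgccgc
The Prph window held 1 TATAAA and 1 GGGCGG, the Ina window 2 GGGCGG and 1 CANNTG, and the Stmn3 window 1 CANNTG. Windows of this length held TATAAA in 12.4%, GGGCGG in 32.7% and CANNTG in 66.2% of 32851 RefSeq promoters. Each match only describes the sequence.

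Neurons were taken as barcodes with at least 10000 unique molecular identifiers (UMIs) in which Snap25, Prph and Stmn2 were detected. This gave 1998 of 2829 barcodes in the mixed library, 1315 of 2256 in the anterior and 1447 of 3276 in the posterior, with median depths of 57062.5, 39854 and 57151 UMIs. Of genes outside the gate, the nicotinic receptor gene Chrna3, typical of autonomic neurons, had a UMI in 95.8 to 99.6% of these barcodes. Actl6b had one in 93.3, 87.6 and 86.2%. At these depths free neuronal RNA can also give 1 UMI, so detection is a weak check of the label. The gate itself fixes that Prph and Stmn2 are detected, and it removed 18, 7 and 51 barcodes of that depth. At its edge, neurons below 12000 UMIs had 41.2, 31.7 and 15.0 Stmn2 UMIs per 10000, and barcodes from 8000 UMIs up to the limit with the same 3 genes detected had 40.1, 25.8 and 12.6. Of the posterior neurons, 39 had fewer than 3 of 6 further neuron markers, against 1 mixed and 4 anterior ones. More than 2 glial marker UMIs per 10000 were present in 22.4, 13.8 and 13.2% of neurons. Pairs of libraries shared 2 or 3 barcodes, of which 1 was a neuron barcode in both libraries. Levels are given as UMIs of a gene per 10000 UMIs of the same barcodes, in the order mixed, anterior, posterior. The kit counts transcript 3′ ends, so levels were not divided by gene length.

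Stmn2 was the most abundant of the 10 genes in all 3 libraries, at 61.4, 54.9 and 49.2 UMIs per 10000. Prph followed at 29.3, 32.2 and 30.0, Stmn3 at 27.2, 29.2 and 24.9, and Stmn1 at 24.8, 17.6 and 16.0. The light chain Nefl stood at 12.6, 10.9 and 10.5 and Gap43 at 10.4, 10.1 and 9.93. The other genes were rarer by far. Nefm stood at 2.39, 2.75 and 2.96, and Stmn4 at 1.35, 1.30 and 1.07. The heavy chain Nefh stood at 1.16, 1.27 and 1.52, and Ina at 0.831, 1.08 and 1.05. The order was the same in every library except that Nefh and Stmn4 changed places, and the ranges of Stmn4 overlapped those of both Nefh and Ina. Gap43 was the steadiest gene across libraries, its highest level being 1.05 times its lowest, and Stmn1 the least steady, at 1.55 times. Even the rarest gene, Ina, had at least 1 UMI in 94.2, 91.4 and 91.1% of neurons.

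Neurons were split by 3 genes outside the set. Nos1 neurons (neuronal nitric oxide synthase) had at least 1 Nos1 UMI per 10000 and numbered 55, 84 and 61. Of the rest, Ddah1 neurons had at least 1 Ddah1 UMI and under 4 Npy UMIs per 10000 and numbered 336, 103 and 436. Npy neurons had at least 4 Npy UMIs and under 1 Ddah1 UMI per 10000 and numbered 1504, 1047 and 760. UMIs were summed per library and subtype and tested in one edgeR quasi-likelihood fit over 13301 genes with the library as block and Benjamini-Hochberg adjustment. With this block, the p-values rest on how evenly the subtype differences ran over the 3 libraries, which differ in region and age. Cells were not treated as replicates.

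Compared with Npy neurons, Ddah1 neurons had less Nefl, Stmn4, Gap43, Ina and Stmn2 and more Nefh. These were 6 of the 10 genes, where 29.3% of all genes tested were called in this comparison. The light chain showed the largest difference. Nefl stood at 13.7, 11.5 and 12.7 UMIs per 10000 in Npy neurons and at 8.22, 6.68 and 6.43 in Ddah1 neurons. No Ddah1 value reached the lowest Npy value. The log2 fold change was -0.85 ± 0.08 (SE; edgeR adjusted p = 4.67e-07), that is 44.5% lower. The heavy chain went the other way: Nefh stood at 1.07, 1.23 and 1.37 in Npy neurons and at 1.58, 1.65 and 1.85 in Ddah1 neurons. Again the groups did not overlap, and the log2 fold change was 0.46 ± 0.06 (adjusted p = 8.95e-06). The middle chain Nefm was lower in each library, at 2.26, 2.34 and 2.57 against 2.42, 2.86 and 3.23, but it missed the threshold (log2 fold change -0.27 ± 0.11, adjusted p = 0.0751). Ina was lower, at 0.612, 0.848 and 0.852 against 0.871, 1.08 and 1.14 (-0.45 ± 0.06, adjusted p = 5.86e-06).

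Gap43 stood at 7.46, 7.88 and 7.72 UMIs per 10000 against 11.0, 10.1 and 10.9 in Npy neurons (log2 fold change -0.49 ± 0.05, adjusted p = 4.83e-07). Stmn4, the rarest stathmin, stood at 0.833, 0.934 and 0.768 against 1.47, 1.32 and 1.17 (-0.68 ± 0.06, adjusted p = 2.36e-07). Neither gene's groups overlapped. The drop in Stmn2 was smaller, from 63.6, 55.4 and 51.9 to 51.9, 51.2 and 44.5 (-0.22 ± 0.04, adjusted p = 4.42e-04), and its groups overlapped across libraries. By contrast, Prph and Stmn3 were almost level. Prph stood at 29.5, 32.5 and 28.9 in Ddah1 neurons against 29.4, 32.0 and 30.4 in Npy neurons (-0.03 ± 0.04, adjusted p = 0.532), and Stmn3 gave -0.04 ± 0.04 (adjusted p = 0.483). Stmn1 was 0.758 times its Npy level in the mixed library, 1.06 times in the anterior and 0.941 times in the posterior, and did not pass (-0.15 ± 0.06, adjusted p = 0.0953); without the anterior library it passed at -0.25 (adjusted p = 0.00775). Glial markers summed to 4.36, 2.37 and 1.93 UMIs per 10000 in Npy neurons and to 4.71, 2.58 and 2.78 in Ddah1 neurons, and the 6 calls held among neurons with at most 2 glial UMIs per 10000. Without the library block only Nefl and Gap43 of the 6 calls remained, the adjusted p-values of Nefh, Ina, Stmn2 and Stmn4 being 0.0994, 0.143, 0.800 and 0.0779.

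**Figure D1:**
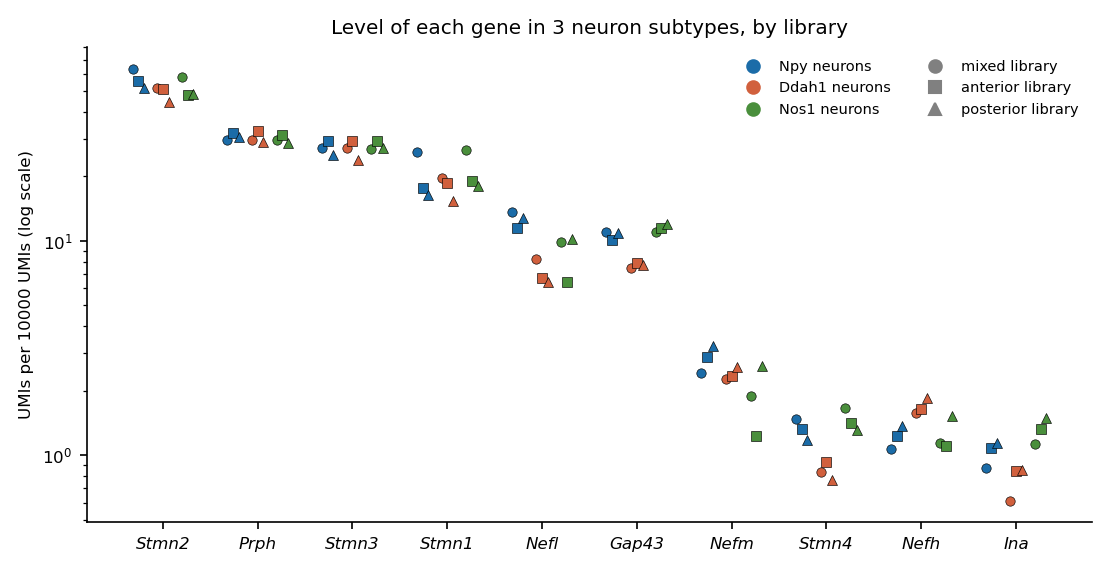
Level of each of the 10 genes (UMIs per 10000 UMIs, log scale) in Npy, Ddah1 and Nos1 neurons, with 1 point per library. Nefl is lowest in Ddah1 neurons in the mixed and posterior libraries, Nefh is highest there in every library, and Prph and Stmn3 hardly move.

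Nos1 neurons had less Nefm, Nefl and Stmn2 and more Ina than Npy neurons. These 4 of 10 calls stand beside 12.9% of all genes called in this comparison. Nefm stood at 1.89, 1.23 and 2.60 UMIs per 10000 in Nos1 neurons, against the 2.42, 2.86 and 3.23 given above (log2 fold change -0.64 ± 0.12, adjusted p = 0.00130). The anterior value was the lowest of the 3, at 0.431 times the Npy level there. Nefl stood at 9.83, 6.42 and 10.2 (-0.58 ± 0.09, adjusted p = 1.41e-04), again lowest in the anterior library. Ina stood at 1.13, 1.32 and 1.49 and was higher than in Npy neurons of the same library each time (0.30 ± 0.06, adjusted p = 0.00302). Stmn2 differed by -0.20 ± 0.04 (adjusted p = 0.00352), a call lost without the anterior library (adjusted p = 0.109) and in neurons thinned to 10000 UMIs each (0.0708). Nefh, Prph, Stmn1, Stmn3, Stmn4 and Gap43 did not pass, with log2 fold changes from -0.09 to 0.09. Without the library block none of the 4 calls held. Median depths were 45938, 33729.5 and 50422 UMIs in Nos1 neurons and 56764.5, 40140 and 58034.5 in Npy neurons.

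Set against each other, Nos1 and Ddah1 neurons differed in 7 of the 10 genes, beside 28.6% of all genes. Stmn4, Ina and Gap43 were higher in Nos1 neurons by 0.77 ± 0.07, 0.75 ± 0.07 and 0.55 ± 0.05 on the log2 scale (adjusted p = 4.00e-07, 1.32e-07 and 2.21e-07). Nefh was lower by -0.47 ± 0.07 (adjusted p = 5.44e-05). These 4 genes went the same way in every library. Without the library block the calls of Ina, Stmn4 and Gap43 held and that of Nefh was lost (adjusted p = 0.0747). The calls of Nefl (0.27 ± 0.09, adjusted p = 0.0275), Nefm (-0.37 ± 0.12, 0.0287) and Stmn1 (0.19 ± 0.07, 0.0357) were weaker. Nefl stood at 1.20, 0.961 and 1.59 times its Ddah1 level and Nefm at 0.835, 0.526 and 1.01 times. Stmn1 was higher in every library, at 1.35, 1.02 and 1.17 times. Each of these 3 calls was lost without the block (adjusted p = 0.623, 0.441 and 0.801). The same held when the mixed library was left out, at adjusted p = 0.0796, 0.107 and 0.230. Nefl was also lost without the posterior library (0.466), Stmn1 likewise (0.0662), and Nefm without the anterior one (0.189). Over all 16 alternatives the 7 genes lost 18 calls in this comparison, and the remaining losses are not listed here.

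**Figure D2:**
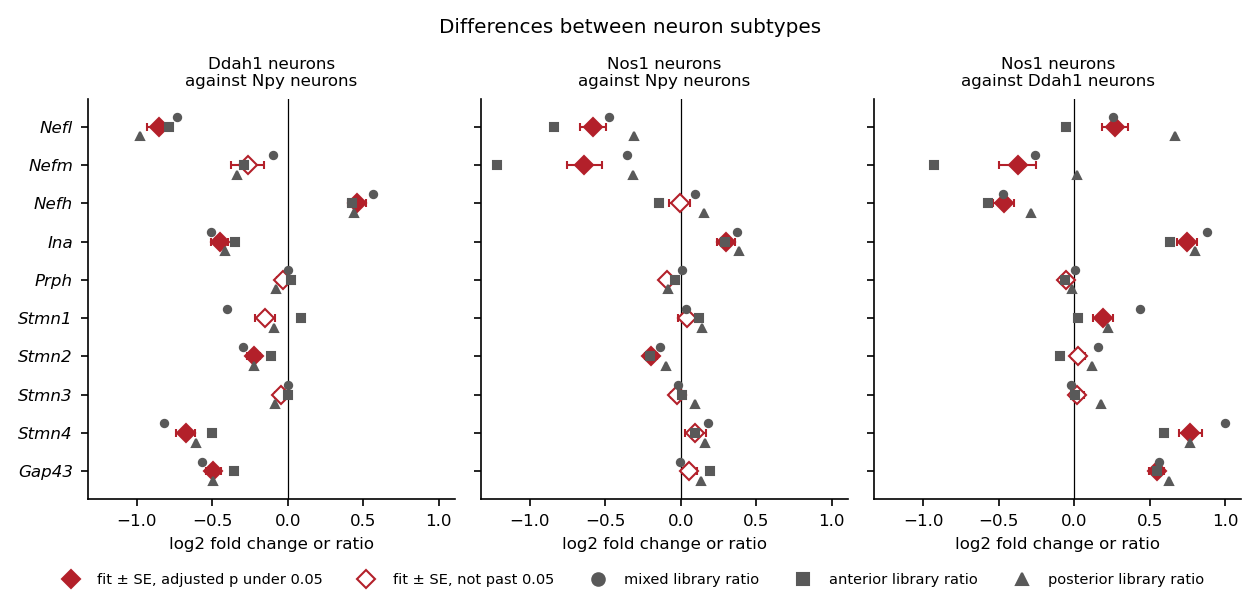
Fitted log2 fold changes with standard errors (diamonds, filled where the adjusted p is under 0.05) and the unfitted log2 ratio in each library (grey) for the 3 subtype comparisons. The anterior ratios of Nefl and Nefm are the lowest of the 3 libraries in both Nos1 comparisons, and Ina, Stmn4 and Gap43 lie above 0 in every library for Nos1 against Ddah1 neurons.

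Within the Nos1 neurons the spread of Nefl and Nefm followed Vip, the gene of vasoactive intestinal peptide. This split, at 1 Vip UMI per 10000, was added after the values had been seen and is given without a test. With all neurons of a library in 3 equal groups by depth, Vip was lower in the deepest than in the shallowest (log2 fold change -2.02, edgeR adjusted p = 3.39e-06). The part of depth in the Vip split was not tested. Nos1 neurons with Vip numbered 23, 61 and 23, or 41.8, 72.6 and 37.7% of the Nos1 neurons. They held Nefl at 5.02, 5.27 and 6.01 UMIs per 10000, and Nos1 neurons without Vip held it at 12.7, 9.12 and 12.1. The ratios were 0.396 (95% counting interval 0.358 to 0.438), 0.578 (0.525 to 0.637) and 0.495 (0.451 to 0.542). Every library thus had the lower level in the neurons with Vip, and these lay below the Ddah1 neurons of the same library. Nefm behaved alike, at 0.847, 1.04 and 1.03 with Vip against 2.50, 1.68 and 3.31 without, with ratios of 0.338, 0.621 and 0.310. These were the only 2 of the 10 genes more than 1.5-fold apart in the same direction in all 3 libraries, where 4.85% of 7712 genes were (1.82% lower). The heavy chain was not split in this way: its ratios were 0.690, 1.02 and 0.856. Stmn3 was slightly higher with Vip (1.08, 1.19 and 1.17 times), and Stmn2 slightly lower (0.862, 0.904 and 0.861 times). Intervals cover counting error only.

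**Figure D3:**
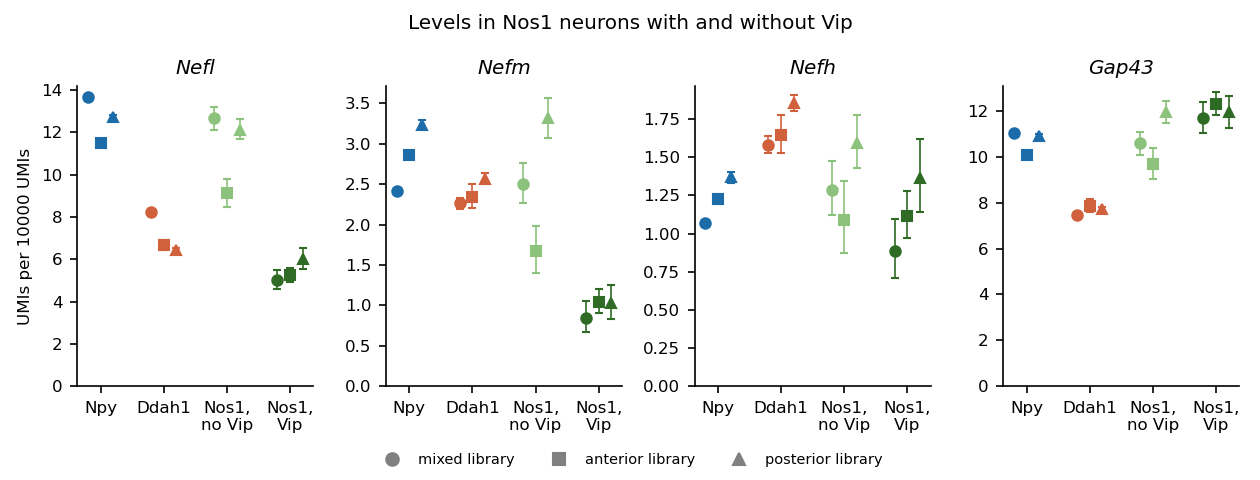
Nefl, Nefm, Nefh and Gap43 levels (UMIs per 10000 UMIs, 95% counting intervals, 1 point per library) in Npy neurons, Ddah1 neurons and Nos1 neurons without and with Vip. Nefl and Nefm are lowest in the Nos1 neurons with Vip in every library, whereas Gap43 is lowest in Ddah1 neurons.

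The rest of the axonal cytoskeleton was read from a list of 40 genes for tubulins, microtubule-associated proteins, motors and growth cone proteins, of which 39 were tested. Ddah1 neurons had 18 of them lower and 4 higher than Npy neurons, and 17 did not pass, where 29.3% of all genes were called, with a median log2 fold change of -0.13 against 0.00 over all genes. Lowest were the microtubule-associated kinase Dclk1 (-1.03), the collapsin response mediator Dpysl2 (-0.76) and the beta-tubulin Tubb2b (-0.66). Among those higher were the beta-tubulin Tubb4a (0.35) and the microtubule and actin crosslinker Macf1 (0.33). In Nos1 against Npy neurons, 3 were higher and 8 lower, beside 12.9% of all genes called. Basp1, a growth cone protein related in function to Gap43, was the most abundant of those higher, at 10.6, 12.1 and 11.5 UMIs per 10000 against 6.59, 6.33 and 6.98 (0.73 ± 0.05, adjusted p = 5.03e-08). Doublecortin, Dcx (4.76), and Marcksl1 (2.50) were higher from very low levels, at most 0.0562 and 0.157 UMIs per 10000 in Nos1 neurons. Lower were the dendritic protein gene Map2 (-0.75), vimentin, Vim (-0.54), and Dpysl2 (-0.41). In Nos1 against Ddah1 neurons 16 of the 39 were higher and 11 lower, beside 28.6% of all genes called.

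A second list held 22 genes known from axon injury and regrowth, of which 18 were tested. Ddah1 neurons had 8 of them higher and 6 lower than Npy neurons, beside 29.3% of all genes called. Higher were the neuropeptide gene Gal (3.75), the endopeptidase gene Ecel1 (1.83) and the small heat shock protein gene Hspb1 (1.05). Lower were the adhesion gene Flrt3 (-1.49), Tubb2b and the transcription factor gene Klf6 (-0.48). In Nos1 against Npy neurons 6 were higher and 2 lower, beside 12.9% of all genes called. Npy is on this list but defined the subtypes and was left out of these counts. Vip is on it and was counted, and it served only for the split within Nos1 neurons.

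Neurons with at least 2 UMIs of the injury-induced transcription factor gene Atf3 after thinning to 10000 UMIs (46, 114 and 188 cells) were compared with neurons with none. Nefl was the 1 gene of the 10 that passed, beside 7.83% of 13636 genes called (1.03% lower). It stood at 8.86, 8.43 and 7.97 UMIs per 10000 against 12.7, 11.2 and 11.0 (log2 fold change -0.49 ± 0.09, adjusted p = 0.0108). The groups did not overlap. Glial RNA moved with this difference: 7 glial markers summed to 14.9, 16.5 and 9.83 UMIs per 10000 in the Atf3-rich neurons and to 4.17, 0.763 and 1.02 in the others. Atf3-rich neurons were also shallower, at median depths of 46640.5, 32553 and 46983.5 UMIs against 57799, 41218 and 59431.5. The part of depth in the Nefl difference was not tested. Among neurons with at most 2 glial UMIs per 10000 the Nefl difference was -0.28 (adjusted p = 0.343). It was also lost among Npy neurons alone (-0.35, 0.121), without the posterior library (-0.51, 0.173) and without the block (-0.50, 0.261). Gap43, a gene known to rise in regrowing neurons, stood at 10.7, 9.75 and 10.6 against 10.4, 10.1 and 9.84 (0.01 ± 0.09, adjusted p = 0.997). Without the mixed library 5 of the 10 genes passed: Nefl, Nefm (-0.28), Nefh (-0.25) and Stmn3 (-0.14) lower, and Stmn1 higher (0.10). Of the injury list, 7 of 18 were higher and 0 lower by edgeR, and 11 did not pass. Among those higher were the cytokine signalling inhibitor gene Socs3 (4.02) and the transcription factor genes Jun (2.23) and Sox11 (1.58). Of the cytoskeleton list, 4 of 40 were higher and 2 lower, with the intermediate filament genes Nes (3.37) and Vim (0.98) among the former. Nes was very rare, at most 0.0182 UMIs per 10000 in Atf3-rich neurons. Neither list was read among neurons with at most 2 glial UMIs per 10000, so the part of glial RNA in these calls was not tested.

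The level of most of these genes also went with the depth of the barcode. The neurons of each library were ranked by depth and parted into 3 equal groups, and the deepest (666, 438 and 482 cells) was compared with the shallowest, at median depths of 79807 against 37638, 54442 against 20770 and 77932 against 26562.5 UMIs. Nefl stood at 14.0, 12.1 and 11.6 UMIs per 10000 in deep neurons and at 10.3, 10.1 and 8.78 in shallow ones. Stmn3 stood at 29.6, 31.3 and 26.2 against 22.1, 25.5 and 21.6. Stmn4 ran against them, at 1.23, 1.20 and 1.00 in deep neurons and 1.49, 1.58 and 1.27 in shallow ones. In the fit 9 of the 10 genes were higher in deep neurons, from 0.33 (Nefm, Nefh) to 0.61 (Nefl), beside 37.5% of 13399 genes called (18.8% higher), and Stmn4 did not pass (-0.10 ± 0.10, adjusted p = 0.473). Single ratios ran below 1 for some of these: Prph stood 0.964 times as high in the mixed library, Nefm 0.984 times in the anterior and Nefh 0.972 times in the posterior. The count rests on the scaling: without TMM factors, which moves the median of all genes from -0.02 to -0.26, Nefl, Stmn3 and Gap43 stayed higher, Stmn4 passed as lower (-0.34, adjusted p = 0.0129) and the other 6 did not pass. Leaving out the anterior library left 2 calls, and leaving out the block none. Glial markers summed to 3.08, 0.913 and 0.950 UMIs per 10000 in deep neurons and to 7.23, 4.12 and 4.18 in shallow ones.

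Between anterior and posterior ganglia the set was nearly level. No test is possible between single libraries. A gene was counted as different past 1.5-fold, if it reached 10 CPM (counts per 1000000 UMIs) in the higher library. None of the 10 genes was past this over all neurons, where 154 of 8244 genes (1.87%) were. The posterior level was 1.20 times the anterior for Nefh (95% counting interval 1.16 to 1.23), 0.825 times for Stmn4 (0.799 to 0.852), 0.853 times for Stmn3 and 0.895 times for Stmn2. The other 6 lay between 0.907 (Stmn1) and 1.08 (Nefm). The median log2 ratio was -0.07 over the 10 genes and 0.08 over all genes, which TMM scaling moved to -0.19 and -0.03. None was past 1.5-fold in Npy neurons alone (0.526% of genes) or in Ddah1 neurons alone (3.3%). In Nos1 neurons Nefm and Nefl were, at 2.11 and 1.59 times the anterior level, beside 10.3% of genes. The share of neurons with Vip moved with this. Among Nos1 neurons with Vip the posterior over anterior ratio was 0.985 for Nefm (0.764 to 1.26) and 1.14 for Nefl (1.03 to 1.26). Among those without Vip it was 1.97 for Nefm (1.64 to 2.39) and 1.33 for Nefl (1.23 to 1.45).

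Across single neurons, each thinned to 10000 UMIs, the genes fell into a group that varied together and a group that did so less. Cells are not replicates, and the correlations of log2(1 + UMIs) are descriptions over 1998, 1315 and 1447 neurons that share a library. Stmn2 correlated with Stmn3 at Pearson's r of 0.69, 0.69 and 0.82. The 6 pairs among Prph, Stmn1, Stmn2 and Stmn3 had median r of 0.57, 0.62 and 0.68. Among neurons with at least 3 of the 6 further neuron markers these medians were 0.57, 0.61 and 0.59. Gap43 went with Stmn2 at 0.33, 0.43 and 0.64. Among the filament chains Nefl and Nefm were the closest pair, at 0.31, 0.40 and 0.48, while Nefm and Nefh gave 0.14, 0.23 and 0.23. The 30 pairs with Nefm, Nefh, Ina or Stmn4 had median r of 0.02, -0.04 and 0.14, and these 4 genes had mean thinned counts of 0.873 to 2.90 UMIs, where counting noise limits r.

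**Figure D4:**
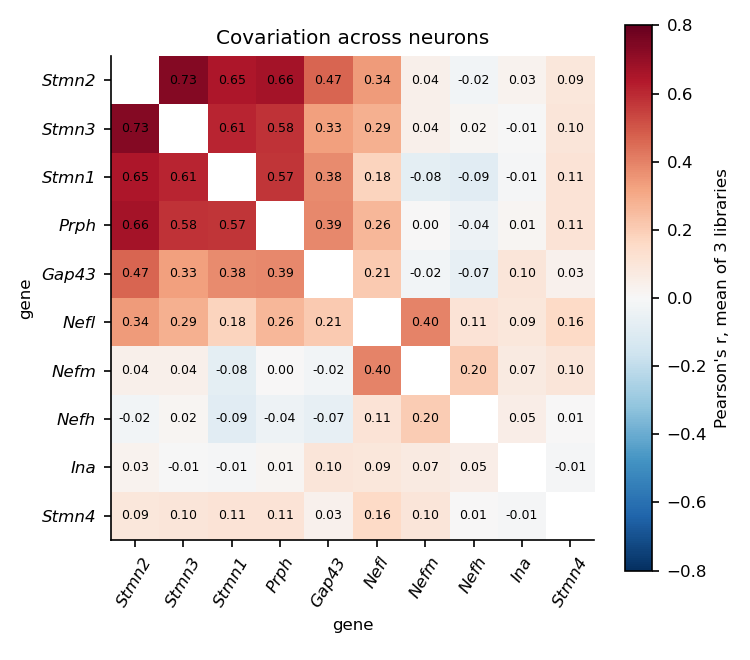
Pearson's r between the 10 genes across neurons thinned to 10000 UMIs, as the mean over the 3 libraries. Prph, Stmn1, Stmn2 and Stmn3 form a block of high values, Nefl and Nefm a separate pair, and Ina and Stmn4 stay near 0.

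Neighbours were sought among 2588 other genes with a mean of at least 0.5 thinned UMIs in every library, with mitochondrial and ribosomal protein genes left out. Most like Stmn2 was Sncg, the gamma-synuclein gene, with a mean r of 0.73 over the 3 libraries. Sncg was also the nearest to Prph (0.62) and Gap43 (0.45). Next to Stmn2 came Slc25a4 (0.67) and Ndufa4 (0.65), and Slc25a4 stood at 0.59 with Prph. Such values lie in the range of those among Prph, Stmn1, Stmn2 and Stmn3, so their covariation was not particular to these 4 genes. Stmn1 and Stmn3 were nearest to the peptidyl-prolyl isomerase gene Ppia (0.71 and 0.68). Nefl was nearest to the neuronal beta-tubulin Tubb3 (0.46) and then to Gnas (0.44) and the alpha-tubulin Tuba1a (0.40). Nefm and Nefh were both nearest to the microtubule-associated protein gene Map1b (0.37 and 0.31), followed for Nefm by the synaptic vesicle gene Syt1 (0.30). Stmn4 was nearest to Tubb2a (0.28), and Ina had no close neighbour, its highest being Ywhab at 0.13.

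Barcodes of other cell classes were gated by at least 4 markers of a class and at most 1 of 6 neuron markers, and they carry free neuronal RNA. Barcodes that met the neuron gate were left out of these classes. For barcodes of at least 10000 UMIs, detection of Prph and Stmn2 thus took part in the selection. Its effect on the comparisons of Prph and Stmn2 was not tested. Each class was tested against the other non-neuronal classes with the library as block, over 6184 genes, among which were 6 of the 10: Gap43, Nefl, Prph, Stmn1, Stmn2 and Stmn3. Stmn1 was higher in satellite glia or Schwann cells, at 8.06, 4.66 and 4.48 UMIs per 10000 (95, 158 and 138 cells). Its log2 fold change was 2.17 ± 0.27 (adjusted p = 4.63e-07). In the other classes of at least 10 cells it stood between 0.274 and 2.93. The glial level was 32.5, 26.4 and 28.0% of that in neurons, while the median share of 11 reference neuronal genes in the same glia was 2.86, 5.07 and 9.38% and the highest 14.1, 24.7 and 31.8%. Gap43 was also higher in glia (1.09 ± 0.27, adjusted p = 0.00205), at 4.49, 7.88 and 14.3% of the neuronal level. Its shares lay above the reference median but below the highest reference gene in each library. The Gap43 call was lost without the block (adjusted p = 0.0779). These 2 of 6 stand beside 34.4% of genes called in glia (24.6% higher). Without the posterior library the 2 differences were 2.85 and 1.78, and with no neuron marker allowed that of Gap43 was 2.96. Thinned to 1000 UMIs per cell, 43.2, 26.6 and 28.3% of glial barcodes had a Stmn1 UMI (66.3, 43.0 and 65.2% unthinned), against 3.12, 3.75 and 10.1% of fibroblasts. Median depths were 2507, 1977.5 and 3478.5 UMIs in glia and 4584, 4418 and 6037 in fibroblasts.

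Endothelial barcodes, gated on genes such as Cdh5 and Pecam1, were higher in Stmn2 alone, 1 of 6 genes beside 17.7% called (14.7% higher). It stood at 4.59, 5.11 and 4.51 UMIs per 10000 in 23, 29 and 28 cells, above every other class of at least 10 cells in each library (log2 fold change 1.49 ± 0.25, adjusted p = 6.52e-05). This was 7.47, 9.31 and 9.18% of the neuronal level, where the reference genes had medians of 1.23, 4.43 and 5.27% and reached 24.4, 15.7 and 14.9%. Prph in the same barcodes stood at 1.53, 8.29 and 8.74%. Of these barcodes 8 of 23, 16 of 29 and 21 of 28 had a Stmn2 UMI, and 1 mixed barcode held 17 of the 41 mixed UMIs. The call held without the barcode richest in Stmn2 of each library (1.08, adjusted p = 0.00173), and the difference was 2.09 without the posterior library. Cardiomyocytes held Stmn2 at 0.586, 2.42 and 3.93 UMIs per 10000, or 0.955, 4.4 and 7.99% of the neuronal level, below the reference medians of 1.11, 8.61 and 12.9%. In the fit they had more Stmn2 (0.99 ± 0.26, adjusted p = 0.00499) and Prph (0.84 ± 0.24, 0.00924), 2 of 6 beside 28.7% called (16.6% higher). Both calls were lost when no neuron marker was allowed (0.584 and 0.330), without TMM factors and without the anterior library. Mural cells had less Stmn1 (-1.55 ± 0.42, adjusted p = 0.00868) and Stmn2 (-1.01 ± 0.29, 0.0151), 2 of 6 beside 19.8% called (4.33% lower), and both were lost when no neuron marker was allowed and without the anterior or the posterior library. No gene of the 6 passed in fibroblasts (25.4% of genes), macrophages (27.7%), lymphocytes or plasma cells (18.0%) or epithelial cells (12.4%). One posterior fibroblast barcode alone held 74 of the 184 Stmn1 UMIs of its class. Nefl, Prph and Stmn3 in glia, which did not pass, stood at 0.442 to 1.57 times the median reference share. The highest of these multiples was about that of Gap43 in glia.

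**Figure D5:**
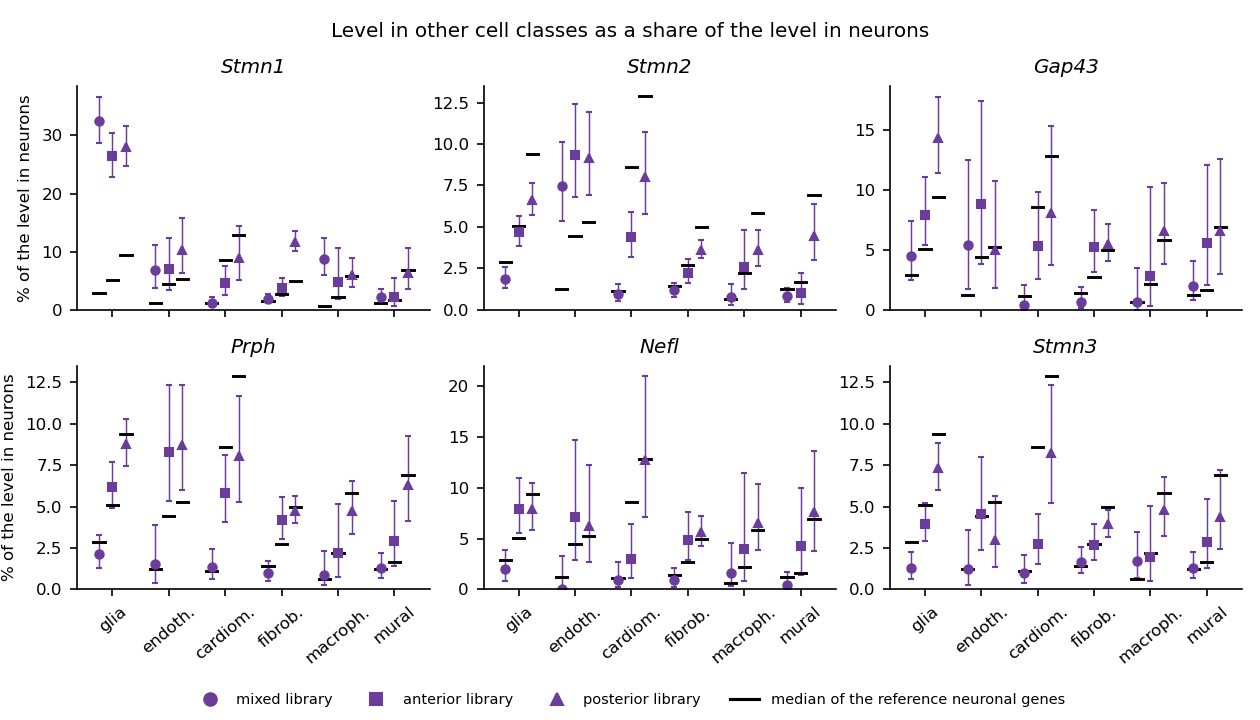
Level of 6 genes in other cell classes as a percentage of the level in neurons of the same library, with 95% counting intervals; black bars give the median of 11 reference neuronal genes. Stmn1 in glia lies at 26.4 to 32.5%; it also lies above the bars in all 3 libraries in endothelial, fibroblast and macrophage barcodes, as do Stmn2 and Prph in endothelial barcodes and Gap43 in glia.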

How the data were processed

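The deposited matrices hold raw UMI counts per gene and barcode made by the authors (10x Chromium 3′ V3), with no normalization, as the whole-number values show. Per the file headers, the mixed matrix came from Cell Ranger 3.1.0 and the others from 6.1.2; the submitters' processing notes name Cell Ranger 7.1.0, Seurat 4.4.2 and mm10. Library totals were 119825307 (mixed), 55329380 (anterior) and 86391988 (posterior) UMIs.

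From these counts, neurons, subtypes and marker-gated classes were formed by the limits in the text, and barcodes were summed per library. Other classes needed at least 1000 UMIs. Sums of at least 20 neurons or 10 other cells were tested with edgeR 4.0.16 (TMM, filterByExpr, quasi-likelihood, library block, adjusted p threshold 0.05). Ratios have exact conditional Poisson and shares exact Clopper-Pearson 95% intervals, which cover counting error only. No barcode was removed as a doublet; an alternative left out the 3% with the highest Scrublet scores (scanpy 1.11.5). DESeq2 1.42.0 was an alternative test. On simulated counts, 83% of 200 genes changed 2-fold were recovered for Ddah1 against Npy neurons (13253 genes). The rate was 69.5% for Atf3 (13441), 85% for depth (13336) and 65% for fibroblasts (4816). The simulation used a fixed spread, not one estimated from these data, and the same change in every library. All called subtype differences of the 10 genes were under 2-fold, so these rates do not give their recovery.

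All 10 genes were named in every comparison, with the 3 nearest genes by mean r and the 3 highest and 3 lowest called genes of each list; a few of these are not reported here. The genes and lists were chosen with earlier results of these data known.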

Additional observations from a re-analysis of the deposited data

Results flagged for a closer look

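In 4 cases the counting intervals put the anterior and the posterior ratio of a gene on opposite sides of 1; the difference between the libraries was not tested, and each region has 1 library. Stmn1 in Ddah1 over Npy neurons had an anterior ratio of 1.06 and a posterior ratio of 0.941. Stmn2 in Nos1 over Ddah1 neurons had 0.939 and 1.09. Stmn4 in Atf3-rich over Atf3-free neurons had 0.843 and 1.09, and Gap43 in the same comparison 0.966 and 1.08. Every one of these 4 comparisons missed the threshold in the fit over all libraries.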

How the results depend on the processing

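Called member genes kept their direction under every alternative run. In Ddah1 against Npy neurons (1903 genes higher, 1998 lower) Nefl and Gap43 were called under all 16 alternatives. Thinning gave 1130 higher and 1101 lower, no block 369 and 458 with 2 members called, and leaving out each library 1137 to 1859 and 1097 to 1703. In Nos1 against Npy neurons (828 and 890) thinning gave 427 and 329, no count filter 1481 lower, no block 243 and 61 with 0 members, and leaving out libraries 392 to 664 lower. In Nos1 against Ddah1 neurons (1824 and 1977) thinning gave 934 and 971, no block 676 and 455 with 3 members, and leaving out libraries 1294 to 1541 lower and 4 to 6 members. For Atf3 (928 and 140) the glial limit gave 293 and 16 with 0 members, no block 561 and 3 with 0 members, no count filter 571 lower, no TMM 2 members, and leaving out libraries 689 to 2023 higher, 62 to 1114 lower and 0 to 5 members. For depth (2523 and 2506) no TMM gave 934 and 5262 with 4 members, DESeq2 1226 lower, no block 0 and 0 with 0 members, and leaving out libraries 1561 to 2732 lower and 2 to 7 members. The 7 member calls in other classes became 4 with no neuron marker allowed, 11 with at least 3 class markers, 3 without the block and 3 to 9 when libraries were left out. Members past 1.5-fold between regions were 0, and 2 in Nos1 neurons alone. The posterior share of Stmn2 in endothelial barcodes was 6.80% with no neuron marker allowed. The median r of Prph, Stmn1, Stmn2 and Stmn3 became 0.485 (mixed) at 20000 UMIs, and 0.595 and 0.586 (posterior) in Npy neurons and with 3 further markers. The cause of these changes was not tested.

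Signs changed only where a gene had missed the threshold. In Ddah1 against Npy neurons thinning turned Prph to 0.016 and Stmn3 to 0.018. In Nos1 against Npy neurons Nefh became 0.010 with DESeq2 and 0.042 without TMM, Stmn1 -0.0066 without a filter, and Stmn3 0.091 thinned and 0.027 without TMM; leaving out libraries gave -0.065 to 0.088 for Nefh and -0.046 to 0.012 for Stmn3. In Nos1 against Ddah1 neurons Stmn2 became -0.00023 thinned and -0.0043 at a Nos1 limit of 2, and Stmn3 -0.0061 without a filter; leaving out libraries gave -0.016 to 0.10 and -0.030 to 0.062. For Atf3 the glial limit gave 0.20 for Ina, 0.15 for Prph, 0.00024 for Stmn1 and 0.20 for Stmn4, Ina became 0.027 with 3 further markers and 0.018 without TMM, Prph 0.026 in Npy neurons, and Gap43 -0.0091 with DESeq2, -0.034 without a filter and -0.00061 without the block. Leaving out libraries gave -0.094 to 0.064 for Ina, -0.097 to 0.071 for Prph, -0.16 to 0.10 for Stmn1, -0.27 to 0.0038 for Stmn4 and -0.056 to 0.067 for Gap43. Stmn1 passed without the mixed library. Requiring 3 further neuron markers, leaving out the richest endothelial barcodes, taking Nos1 neurons alone for region and a Vip limit of 2 were chosen after seeing the data. No paired analysis was possible because each region has 1 library and the labels give no shared replicate numbers; the library itself was the block.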

Other observations

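Neurons that met none of the 3 subtype limits numbered 103 (mixed), 81 (anterior) and 190 (posterior). Their levels lay near those of Npy neurons: Nefl stood at 12.2, 11.7 and 11.7 UMIs per 10000, Gap43 at 10.8, 11.3 and 10.8 and Nefh at 1.17, 1.43 and 1.33. In the posterior library these neurons also held the proliferation gene Top2a at 0.0860 UMIs per 10000. Posterior Npy and Ddah1 neurons held it at 0.0007 to 0.002. Over all posterior neurons, 93 Top2a UMIs lay in 0.829% of barcodes, so few of the 190 can have held it. Stmn1, which dividing cells are known to make, stood at 15.8 against 16.3 and 15.3. This mean over all 190 cannot show the Stmn1 level of the barcodes with Top2a.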
